A study of Mus musculus with 2 samples.

Results

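Smooth muscle cells (SMCs) that kept the red reporter tdTomato were examined in the thoracic aortas of 2 GFPiSMC mice. They were chosen by counts of UMIs, the molecular tags that let each captured transcript be counted once. A gated SMC had at least 5 UMIs of *Myh11*, *Cnn1* and *Lmod1* in sum and none of *Pecam1*, *Cdh5*, *Ptprc* or *Pdgfra*, the markers of endothelial cells, leukocytes and fibroblasts. Among these, a cell kept tdTomato when it had at least 1 tdTomato UMI and at most 2 eGFP UMIs. The rule found 80 cells, 38 in aorta 1 and 42 in aorta 2, among 2332 gated SMCs, 8799 cells that passed limits on the genes detected (over 200), on UMIs (3000 to 25000) and on mitochondrial transcripts (under 10%), and 15210 deposited cells. They were compared with gated SMCs that had at least 5 eGFP UMIs and no tdTomato, called eGFP SMCs here (1205 and 869 cells). Gated SMCs with at least 5 eGFP UMIs and any tdTomato are called both-reporter SMCs (101 and 51 cells).

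Both mice formed 1 group, labelled wild-type (WT) and GFPiSMC, of strain C57BL/6J. Per the labels, both had received tamoxifen intraperitoneally at 3 weeks of age, at 1 mg/d over 5 days, and their aortas were taken when they were 12 weeks old. The study's general methods describe male mice and give other ages at induction, and another dose outside a subgroup. The inducible Cre is driven by the *Myh11* promoter, so only cells with an active promoter at the time of tamoxifen can switch their reporter. Each aorta is 1 droplet library. The labels describe aortic cells sorted as single and viable, and the study also shows its data on such control mice with fibroblasts among the clusters. Its single-cell methods name a GFP+ gate as well, but the libraries held many cells without eGFP. All classes compared here come from the same 2 animals (n = 2 aortas).

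The *mT/mG* reporter is an allele at the *Rosa26* locus that makes membrane tdTomato in nearly every cell until Cre removes the tdTomato cassette and turns on membrane eGFP. The Cre of this line is fused to a ligand-binding domain of the estrogen receptor and enters the nucleus when tamoxifen is bound. The switch is permanent and inherited by daughter cells. In lineage tracing, SMCs in which the allele was not recombined keep tdTomato and form the remainder of the medial layer that is not followed.

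The deposited libraries held 47009780 and 30919996 UMIs. Within the limits the median cell had 6903 and 6929 UMIs. The barcode sets of the aortas shared 18 barcodes, and 1 of the 80 cells had a barcode that also occurred in the other aorta. Scrublet called 188 and 89 cells doublets, of which 0 and 1 belonged to the 80 cells. The labels state between 4300 and 6278 analysed cells per aorta, whereas the study's stated filter left 3919 and 2560 of these barcodes without its eGFP limit and 1916 and 1295 with it.

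Reporter counts defined the classes and are given as a description. The SMCs that kept tdTomato made up 2.81% of gated SMCs in aorta 1 (exact 95% binomial interval 1.998 to 3.84) and 4.28% in aorta 2 (3.10 to 5.74). The intervals, which cover counting error only, overlapped. They carried between 1 and 18 tdTomato UMIs in aorta 1, with a median of 8, and between 1 and 16 in aorta 2, with a median of 5. Only 4 cells in each aorta rested on a single tdTomato UMI, and 32 and 31 cells had 3 or more. In contrast, 71 of 101 and 34 of 51 both-reporter SMCs had a single tdTomato UMI.

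No eGFP UMI was found in 21 and 30 of the cells that kept tdTomato. In all, 44.7% (28.6 to 61.7) and 28.6% (15.7 to 44.6) had 1 or 2 eGFP UMIs at a median depth of 7674 and 7610 UMIs. Any eGFP UMI was found in 33.0% and 37.2% of endothelial cells (median 4721 and 4548 UMIs), 24.02% and 20.5% of fibroblasts (6483 and 6232 UMIs) and 23.2% and 19.2% of leukocytes (5795 and 6244 UMIs), 3 types not known for *Myh11* promoter activity. These reference cells had under 5 UMIs of the gate genes and were set by *Pecam1* and *Cdh5*, *Pdgfra* or *Ptprc*. The eGFP level summed over cells was 61.5 and 46.2 counts per 1000000 UMIs (CPM) in the cells that kept tdTomato, against 81.8 and 159 in endothelial cells, 79.7 and 44.4 in fibroblasts, 49.8 and 32.8 in leukocytes, and 7038 and 6753 in eGFP SMCs. The cells that kept tdTomato were capped at 2 eGFP UMIs by the rule, whereas the reference cells were not and reached up to 54 UMIs in a cell, so nothing is drawn from their order.

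The gap in eGFP between the classes was set by the rule and was narrow at its edge. The median eGFP SMC held 65.8 and 62.9 eGFP UMIs per 10000 UMIs and the lowest 5.69 and 6.26, while the highest cell that kept tdTomato held 3.76 and 2.89, and 4 and 9 gated cells lay between at 3 or 4 eGFP UMIs. For tdTomato, the median cell that kept tdTomato held 8.47 and 6.33 tdTomato UMIs per 10000, compared with 12.04 and 10.98 in endothelial cells, 2.98 and 1.80 in fibroblasts, 3.13 and 2.52 in leukocytes and 1.48 and 1.46 in both-reporter SMCs. At the edge of the rule, 2 and 3 cells had the highest allowed eGFP count of 2 UMIs. Just outside it, 2 cells in each aorta had tdTomato with 3 or 4 eGFP UMIs, and 3 and 10 gated cells had no tdTomato and at most 2 eGFP UMIs. At the lower edge of the gate, 2 and 0 cells had exactly 5 UMIs of the gate genes, and 3 cells in each aorta with the same reporter counts had 4 and were left out. A further 21 and 22 cells met the gate and reporter limits but lay outside the limits on genes, UMIs or mitochondrial share.

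**Figure D1:**
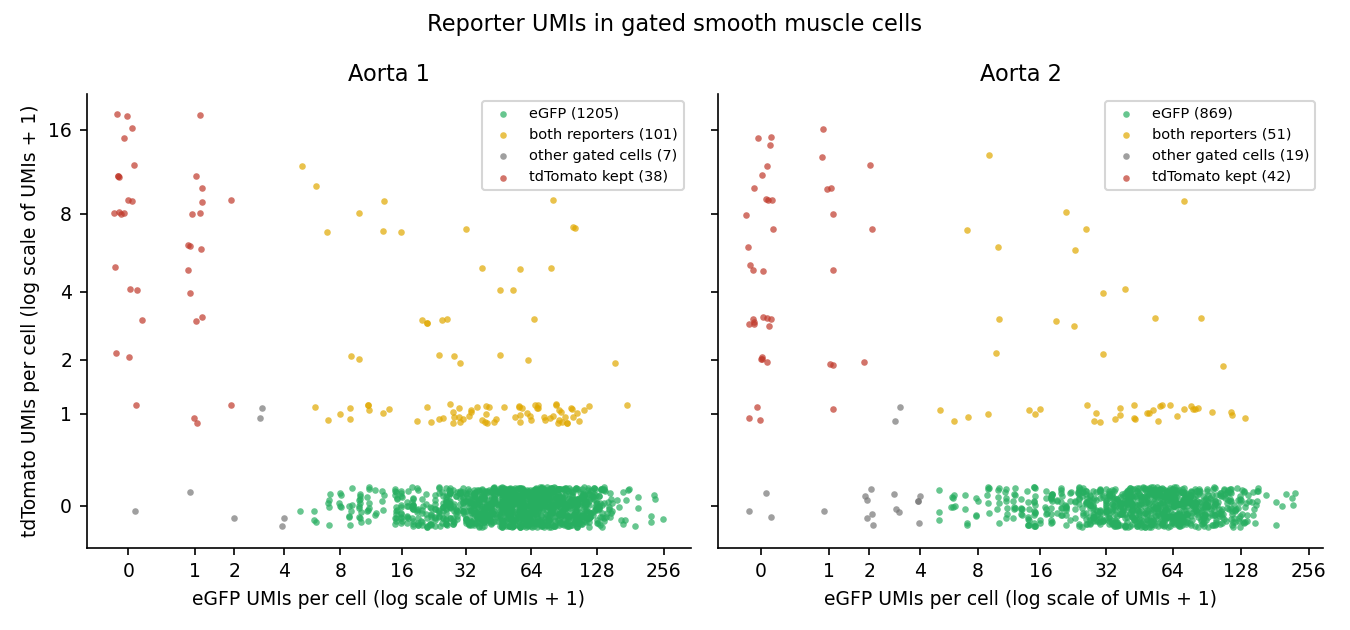
Reporter UMIs of every gated SMC, with eGFP on the x axis and tdTomato on the y axis, both on a log scale of UMIs + 1 with a small jitter, by aorta and class. The 38 and 42 cells that kept tdTomato stand at 0 to 2 eGFP UMIs and up to 18 tdTomato UMIs, whereas most both-reporter SMCs stand at 1 tdTomato UMI across the eGFP range.

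The label of these cells as SMCs was then checked against markers, and it fitted most but not all of them. SMCs are known for their contractile apparatus of smooth muscle actin and myosin. *Acta2*, which encodes smooth muscle actin, stood at 18682 and 17288 CPM in the cells that kept tdTomato and at 22474 and 22169 in eGFP SMCs, against 543 and 482 in endothelial cells, 195 and 134 in fibroblasts and 139.6 and 99.9 in leukocytes. *Myh11*, the smooth muscle myosin heavy chain used in the gate, stood at 4081 and 3732 against 4850 and 4453 CPM. As a gate gene it chose the cells, so its level is a description and does not check the label. A list of 26 other contractile genes gave a median of 6.98% and 6.18% of all UMIs of a cell, compared with 7.93% and 7.91% in eGFP SMCs, 0.713% and 0.696% in endothelial cells and 0.517% and 0.522% in fibroblasts.

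The spread between single cells was large. The sum of the gate genes ran from 5 to 251 UMIs in aorta 1, with a median of 48, and from 8 to 124 in aorta 2, with a median of 46.5. It was under 15 UMIs in 28.9% (15.4 to 45.9) and 9.52% (2.66 to 22.6) of the cells that kept tdTomato, against 3.65% (2.67 to 4.87) and 3.57% (2.44 to 5.03) of eGFP SMCs. Markers of other cell types that stood under 30 CPM in eGFP SMCs of both aortas were summed for endothelial, fibroblast, myeloid, lymphocyte, mesothelial and neural lists. At least 3 UMIs of one such list were found in 34.2% (19.6 to 51.4) and 23.8% (12.1 to 39.5) of the cells that kept tdTomato. The same was true of 7.88% (6.43 to 9.55) and 6.90% (5.31 to 8.80) of eGFP SMCs and of 35.6% (26.4 to 45.8) and 25.5% (14.3 to 39.6) of both-reporter SMCs. These shares are given without a test.

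Fibroblast markers were the most frequent, with 11 and 6 of the 38 and 42 cells at 3 UMIs or more. Endothelial markers reached that limit in 3 and 1 cells, myeloid markers in 2 and 2, mesothelial markers in 2 and 2, lymphocyte markers in 0 and 1, and neural and glial markers in none. A few cells carried most of these UMIs. In aorta 1 a single cell held 387 of 578 myeloid UMIs and another held 182. In aorta 2 a single cell held 107 of 131. For mesothelial markers, 103 and 57 of 162 UMIs came from 2 cells of aorta 1 and 84 and 18 of 105 from 2 cells of aorta 2.

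Each comparison is therefore also given within stricter limits, which required at least 15 UMIs of the gate genes and under 3 UMIs of every such list. These limits were set after the data had been seen. They kept 24 and 31 of the cells that kept tdTomato (55 of 80), called strict cells here, and 1074 and 780 eGFP SMCs. In the strict cells the contractile list gave a median of 8.01% and 6.54% of UMIs, *Myh11* stood at 5585 and 4323 CPM against 4991 and 4585 in strict eGFP SMCs, and *Acta2* at 25350 and 17924 against 23041 and 22590. In the 25 remaining cells, the contractile list gave 1.44% and 5.05%. *Myh11* counted toward the 15 UMIs of the gate genes, so its level here follows in part from the choice of cells. The same may hold for the other contractile genes, so these levels are a description and do not check the label. The limits themselves set low counts of most other-type markers: all 9 lymphocyte markers were at 0 in the strict cells of aorta 2 and all but *Trbc2* in aorta 1, and 7 of 8 mesothelial markers were at 0 in each aorta. Myeloid markers summed to 14.5 and 74.3 CPM against 38.0 and 38.5 in strict eGFP SMCs, with 1 and 7 of 9 detected, and endothelial markers to 57.9 and 74.3 against 64.4 and 64.4. Of 11 fibroblast markers the limits used 6, and the whole list summed to 1104 and 1724 CPM against 987 and 1095, mostly *Mfap5* and *Col14a1*, with 79.2% and 77.4% of strict cells at 3 UMIs or more against 73.7% and 73.5%. The share of gated SMCs that kept tdTomato was 2.06% (1.32 to 3.05) and 3.62% (2.47 to 5.10) under these limits.

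**Figure D2:**
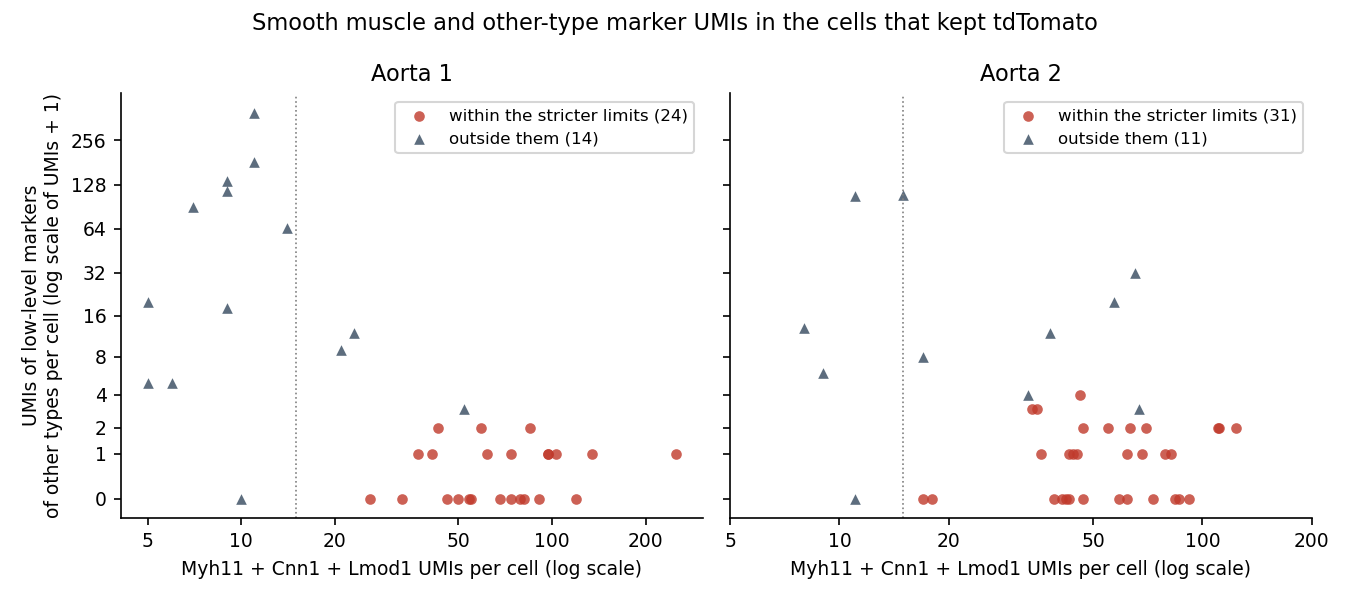
UMIs of the gate genes (x axis, log scale) and of low-level markers of other cell types summed over all lists (y axis, log scale of UMIs + 1) in each cell that kept tdTomato, by aorta. The 55 strict cells (circles) lie to the right of the dotted line at 15 UMIs, and of the others (triangles), 11 of 14 in aorta 1 and 4 of 11 in aorta 2 lie left of it.

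The first comparison asked which genes differ between SMCs that kept tdTomato and eGFP SMCs of the same aortas. UMIs were summed per aorta and class, and the sums were tested by edgeR's quasi-likelihood test with Benjamini-Hochberg adjustment. A gene passed when its adjusted p was under 0.05 and its log2 fold change lay beyond 1 in either direction. Over all gated cells, 84 of 7817 genes were higher in the cells that kept tdTomato (1.07% of genes tested) and 2 were lower (0.0256%), 86 in all (1.1%). With the aorta as a block 117 were higher (1.5%) and 6 lower (0.0768%), 123 in all (1.57%), and DESeq2 called 162 higher (0.897%) and 2 lower (0.0111%) of 18066, 164 in all (0.908%). The higher genes included mesothelial, myeloid and fibroblast markers, and the lower ones were *Esr1* and *Tppp3*. The sums of the cells that kept tdTomato held 308960 and 325024 UMIs, against 10630074 and 7317851 in eGFP SMCs, so their levels are the less precise side of each comparison.

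The genes with the largest increases were mesothelial. *Upk3b*, a uroplakin of the mesothelial surface, stood at 233 and 120.0 CPM in the cells that kept tdTomato and at 2.16 and 1.23 in eGFP SMCs (log2 fold change 6.55). *Msln*, which encodes mesothelin, stood at 48.6 and 52.3 against 1.41 and 0.547, and *Fxyd3*, a regulator of the sodium pump in epithelia, at 74.4 and 52.3 against 0.564 and 0.957. Of 8 mesothelial markers, all 8 were tested and 6 passed (*Msln*, *Upk3b*, *Upk1b*, *Krt19*, *Lrrn4* and *Nkain4*). These levels were not those of the class as a whole: 2 cells in each aorta held 98.8% and 97.1% of the mesothelial UMIs, and 34 of 38 and 38 of 42 cells had none. All 8 markers are among the genes that set the stricter limits, so their low counts in the strict cells follow from the choice of cells.

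*C3* and *C2*, 2 of the 15 largest increases, also stood high in fibroblasts. *C3*, the central complement component, stood at 324 and 212 CPM against 9.22 and 12.3 (log2 fold change 4.61), with 1433 and 1680 in fibroblasts and 66.3 and 99.6 in leukocytes, and *C2*, a complement protease, at 51.8 and 21.5 against 0.941 and 0.957, with 106 and 86.6 in fibroblasts and 9.74 and 9.36 in leukocytes. Myeloid markers rose in the summed levels but came from few cells, with 2 cells holding 98.4% of their UMIs in aorta 1 and 1 cell 81.7% in aorta 2. *C1qa*, *C1qb* and *C1qc*, which encode the chains of C1q made by macrophages, had log2 fold changes of 4.28 to 4.55. *Pf4* and *Folr2*, both known in resident macrophages, stood at 346 and 46.2 against 10.1 and 7.11 and at 51.8 and 43.1 against 2.07 and 0.957. Of 9 myeloid markers, 7 were tested and 5 passed. Among the cells that kept tdTomato the C1q genes and *Pf4* stood higher in aorta 1, with *C1qa* at 379 and 98.5 CPM against 14.7 and 8.06 in eGFP SMCs. All 9 myeloid markers also set the stricter limits.

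Fibroblast and matrix genes formed the third group. *Dcn*, which encodes decorin, stood at 1761 and 369 CPM against 122 and 106. *Igfbp6*, a binding protein of insulin-like growth factors, stood at 550.2 and 135 against 8.47 and 12.8. *Fmod*, which encodes the collagen-binding proteoglycan fibromodulin, stood at 188 and 27.7 against 4.80 and 2.87. Of 11 fibroblast markers, all 11 were tested and 8 passed (*Dcn*, *Lum*, *Dpt*, *Pi16*, *Clec3b*, *Col14a1*, *Serpinf1* and *Smoc2*). *Gpm6a*, *Aldh1a1* and *Trf*, also among the 15 largest increases, had log2 fold changes of 5.39, 4.76 and 4.52. The part of other-type UMIs in these calls was not tested.

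All 84 genes that were higher stood above eGFP SMCs in at least 1 of the reference endothelial cells, fibroblasts or leukocytes, as did 71.4% of the genes tested. Fibroblasts had the highest level of the 3 for 47 of them, leukocytes for 26 and endothelial cells for 11. The cells outside the stricter limits held 32.9% and 25.4% of all UMIs of the cells that kept tdTomato and 93.0% and 76.9% of the UMIs of these 84 genes. Without the 15 of the 84 genes whose UMIs set the limits, the shares were 91.4% and 74.6% for the 69 others. Because the cells were left out for their other-type markers, these shares follow in part from that choice and are a description. Summed, the 84 genes stood at 14591 and 6793 CPM in all cells that kept tdTomato, 1514 and 2108 in the strict cells, and 1402 and 1432 in strict eGFP SMCs.

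Within the stricter limits no gene of 5977 tested passed in either direction (0.0%) by edgeR, with 297 genes at an unadjusted p under 0.05, and none of 17437 passed by DESeq2, with 411. With every cell thinned to 3000 UMIs, none of 2667 passed by edgeR, with 152 at an unadjusted p under 0.05. Of the 84 genes, 62 were too low to be tested there, 17 had a positive and 5 a negative fold change, and the median of these 22 was 0.44 on the log2 scale against 1.52 over all cells. With the aorta as a block, 3 genes passed (0.0502%) and all 3 were lower. They were *Esr1*, *Des* and *Cdkn1a*. The absence of a call does not show that the strict cells are like eGFP SMCs, since they numbered 24 and 31.

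**Figure D3:**
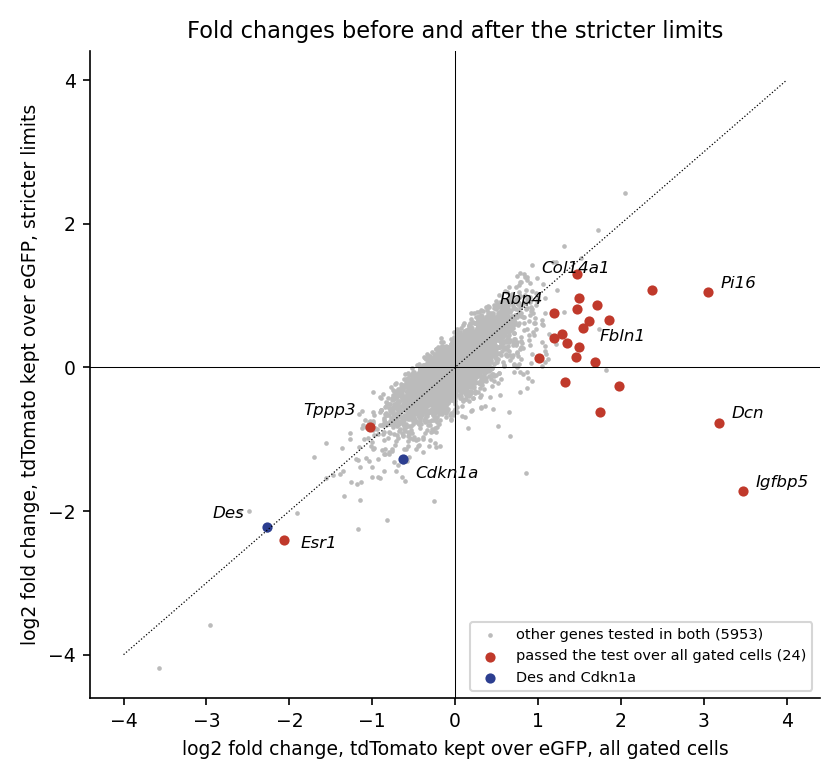
Log2 fold changes of SMCs that kept tdTomato over eGFP SMCs, over all gated cells (x axis) and within the stricter limits (y axis), for every gene tested in both fits. Of the 24 genes that passed over all cells and were tested again (red), 5 changed sign within the stricter limits, among them *Dcn* and *Igfbp5*, and 23 of 24 had a smaller absolute change there, *Esr1* being the exception. *Des* and *Cdkn1a* are in blue.

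*Esr1* (chr10:4611593-5005614, GRCm38, plus strand) encodes the nuclear estrogen receptor alpha. It was counted with 3 and 6 UMIs in the cells that kept tdTomato, or 9.71 and 18.5 CPM, and stood at 58.6 and 56.3 CPM in eGFP SMCs. Both aortas showed the lower level. On the log2 scale the difference was -2.06 with an SE of 0.44 (adjusted p = 0.0419). Among strict cells *Esr1* stood at 4.82 and 16.5 CPM against 57.5 and 57.2, with a log2 fold change of -2.41 (SE 0.51). The adjusted p was 0.692 without and 0.0377 with the aorta as a block. Over 16 alternatives the log2 fold change ran from -2.44 to -1.77 and the adjusted p from 2.26e-06 to 0.944, with 9 calls.

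Counted per cell, *Esr1* was found in 7.89% and 11.9% of SMCs that kept tdTomato and in 37.6% and 36.0% of eGFP SMCs. With every cell thinned to 3000 UMIs the shares were 2.63% (0.0666 to 13.8) and 4.76% (0.582 to 16.2) against 15.7% (13.7 to 17.9) and 15.2% (12.9 to 17.8), and 1.23% and 0.924% in leukocytes. Both-reporter SMCs had 42.1 and 81.1 *Esr1* CPM, endothelial cells 25.2 and 27.3, fibroblasts 29.3 and 31.0, and leukocytes 5.54 and 4.99. With 3 and 6 UMIs, or 1 and 4 in the strict cells, the level of the cells that kept tdTomato is not ranked among these types. Because the Cre of these mice carries an estrogen receptor domain, reads of the fusion transcript may have been counted under *Esr1*, and their part in the result was not tested.

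*Gt(ROSA)26Sor* (chr6:113067428-113077333, GRCm38, minus strand) is the non-coding RNA of the locus that holds the reporter. It had 1 and 2 UMIs in the cells that kept tdTomato, or 3.24 and 6.15 CPM, and stood at 22.2 and 22.0 in eGFP SMCs (log2 fold change -2.26, SE 0.56, adjusted p = 0.0877), which did not pass the test. Over 12 alternatives it passed in 1, the fit with no filter on low counts, with adjusted p between 0.0128 and 1.0 and a log2 fold change between -2.72 and -1.77. Both-reporter SMCs had 14.7 and 20.3 CPM, endothelial cells 4.13 and 1.12, fibroblasts 1.09 and 0.267 and leukocytes 2.86 and 2.81. The gene overlaps *Thumpd3* on the other strand. Of the other genes next to the locus, *Setd5* stood at 74.4 and 123 CPM against 130 and 120, and *Thumpd3* was too low to be tested.

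*Tppp3* (chr8:105467493-105471526, GRCm38, minus strand), which encodes a tubulin-binding protein, was the other lower gene. It stood at 87.4 and 89.2 CPM in the cells that kept tdTomato and at 161 and 189 in eGFP SMCs (log2 fold change -1.03, SE 0.17, adjusted p = 0.0120). Both-reporter SMCs had 173 and 180.2. Among strict cells *Tppp3* stood at 101 and 99.0 against 161 and 187, which gave -0.84 (SE 0.21, adjusted p = 0.887, and 0.316 with the block), so the change no longer passed. Over 18 alternatives its adjusted p ran from 8.46e-07 to 1.0, with 8 calls. *Rbpms2*, an RNA-binding protein gene of smooth muscle that was chosen after its values were seen, had 48.6 and 67.7 against 111 and 111 CPM (log2 fold change -0.98, SE 0.19, adjusted p = 0.0314), just under the fold limit.

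*Des* (chr1:75360329-75368579, GRCm38, plus strand) encodes the intermediate filament desmin of muscle cells, and it too was singled out after its values were seen. Its 9 UMIs in aorta 1 all lay in 1 of 38 cells, and its 4 UMIs in aorta 2 in 4 of 42, against a *Des* UMI in 18.4% and 11.2% of eGFP SMCs. The levels were 29.1 and 12.3 CPM against 122 and 68.3. The log2 fold change of -2.27 (SE 0.63) did not pass without the block (adjusted p = 0.148) and passed with it (adjusted p = 0.000277). Among strict cells 9 and 1 UMIs remained and the values were -2.22 (adjusted p = 0.917) and, with the block, -2.17 (adjusted p = 0.00586). *Des* was low in endothelial cells, fibroblasts and leukocytes, at 0 to 7.79 CPM. In the 3 + 2 cells left by a broader limit on other-type markers its log2 fold change was 0.73, so its direction was not the same under every alternative. Over 18 alternatives the adjusted p ran from 6.82e-12 to 1.0, with 3 calls.

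*Cdkn1a*, a cell cycle inhibitor induced by p53, had 133 and 58.5 CPM in the cells that kept tdTomato against 132 and 153 (log2 fold change -0.63, adjusted p = 0.392). In the strict cells it stood at 33.8 and 74.3 against 121 and 140.5 (log2 fold change -1.27, SE 0.29), with an adjusted p of 0.704 without and 0.0355 with the block. The strict cells held only 7 and 18 *Cdkn1a* UMIs, in 5 of 24 and 9 of 31 cells. *Fn1*, which encodes fibronectin, stood at 434 and 512 against 640 and 761 within the stricter limits (log2 fold change -0.60, SE 0.16, adjusted p = 0.916, and 0.0452 with the block), under the fold limit.

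Of the 17 genes that rose over all cells and had a positive fold change in the strict cells, *Col14a1* and *Rbp4* are described because their adjusted p was under 0.05 there with the block, although neither passed the fold limit. *Col14a1* (chr15:55307750-55520803, GRCm38, plus strand) encodes a collagen that binds fibrils. It stood at 430.5 and 480.0 CPM against 164 and 149 (log2 fold change 1.495, SE 0.13, adjusted p = 9.96e-05) and, within the stricter limits, at 212 and 338 against 146 and 131 (0.96, SE 0.17, adjusted p = 0.238, and 0.00717 with the block). *Rbp4* (chr19:38116629-38125281, GRCm38, minus strand), the plasma carrier of retinol, was chosen after its values were seen. It stood at 437 and 329 against 168 and 156 (1.20, SE 0.15, adjusted p = 0.00146) and at 314 and 231 against 161 and 147 within the stricter limits (0.76, SE 0.18, adjusted p = 0.704, and 0.0377 with the block). Fibroblasts had 2056 and 2471 *Col14a1* and 571 and 606 *Rbp4* CPM.

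*Dcn* and *Igfbp5* turned direction. *Igfbp5*, another binding protein of insulin-like growth factors, stood at 880.4 and 498 CPM over all cells that kept tdTomato against 48.8 and 73.0 (log2 fold change 3.47). In the strict cells it stood at 9.65 and 16.5 against 36.9 and 49.9 (-1.72, SE 0.53, adjusted p = 0.917). *Dcn* stood at 33.8 and 33.0 against 48.2 and 63.4 in the strict cells (-0.77, adjusted p = 0.917).

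**Figure D4:**
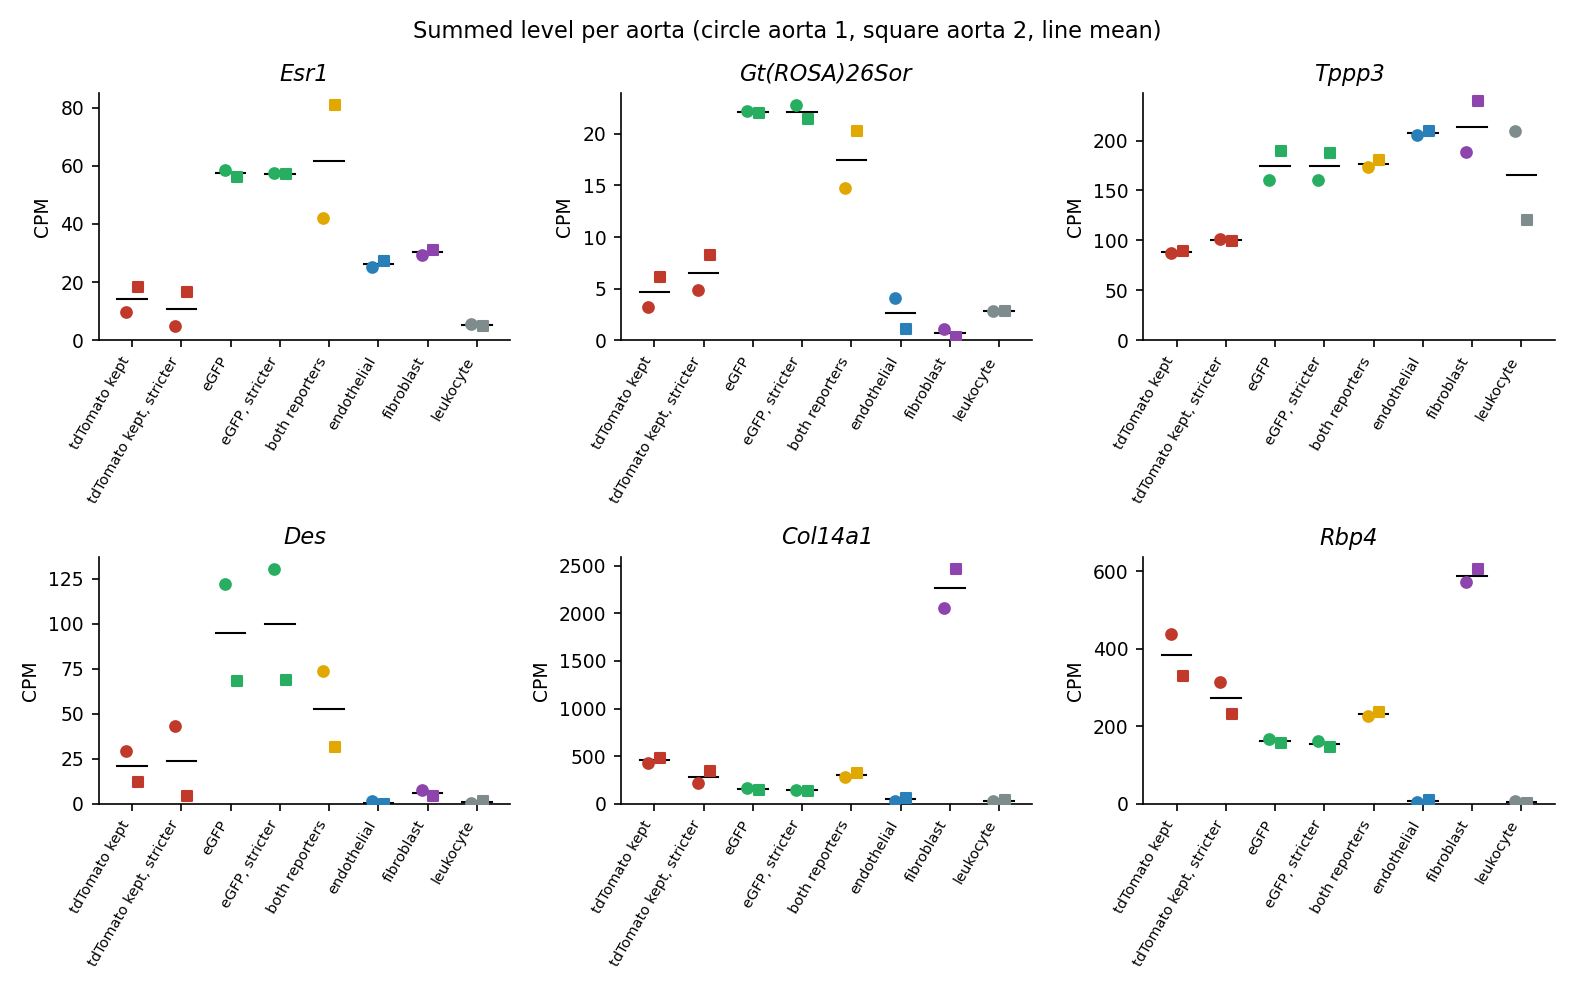
Levels of 6 genes in CPM, summed per aorta (circle, aorta 1; square, aorta 2; line, mean), in each reporter class over all gated cells, in the tdTomato and eGFP classes also within the stricter limits, and in the reference cells. *Esr1*, *Gt(ROSA)26Sor*, *Tppp3* and *Des* are lower in both aortas in the cells that kept tdTomato than in eGFP SMCs, and *Col14a1* and *Rbp4* are higher, with fibroblasts highest for the last 2.

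Lists of genes with a role in the arterial wall were then compared, beside a median log2 fold change over all genes tested of 0.00 both over all cells and within the stricter limits. None of the 26 contractile genes passed over all cells, but 25 of 26 had a negative fold change, with a median of -0.27. Within the stricter limits 8 were positive and 18 negative, with a median of -0.06, and *Des* passed with the block alone. *Acta2* had a log2 fold change of -0.35 over all cells and -0.11 in the strict cells (SE 0.15), and *Tpm2*, which encodes a tropomyosin, had -0.40 and -0.16. Over 18 alternatives the adjusted p was under 0.05 in 7 for *Acta2* and in 7 for *Tpm2*. Neither reached the fold limit in any, with log2 fold changes down to -0.46 and -0.52. The summed contractile level of the strict cells was 85350 CPM in aorta 1 and 68318 in aorta 2, against 80657 and 80400 in strict eGFP SMCs, above it in one aorta and under it in the other.

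Transcription factors and cofactors of smooth muscle had a median of 0.00 over the 15 tested and -0.06 over 12 within the stricter limits, with no gene passing. *Mef2c*, a factor of muscle and vascular cells, stood at 299 and 322 CPM in the strict cells against 287 and 272. *Gata6*, a factor of arterial SMCs, stood at 125 and 86.6 against 126 and 119.

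Among matrix genes, 15 of 17 genes of elastic fibres had a positive fold change within the stricter limits, with a median of 0.20 and no call. *Eln*, which encodes tropoelastin, stood at 4519 and 3680 CPM against 3256 and 3073 (log2 fold change 0.34, SE 0.13, adjusted p = 0.917). *Mfap5*, a microfibril protein, stood at 830 and 1279 against 742 and 816. Over all cells, *Fbln1*, *Fbln2*, *Efemp1* and *Mfap2* of this list passed. Of these, *Fbln1* stood at 38.6 and 116 against 50.4 and 55.9 in the strict cells and *Mfap2* at 33.8 and 45.4 against 26.5 and 32.3. Fibrillar collagens and their partners had 10 of 13 positive, with a median of 0.13. *Col1a1*, a chain of the main fibrillar collagen, stood at 1418 and 852 against 578 and 563 over all cells (0.95, adjusted p = 0.0285) and at 781 and 751 against 552 and 542 in the strict cells (0.45, adjusted p = 0.917).

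Basement membrane genes had a median of 0.12 over 15 tested within the stricter limits. *Col18a1*, a basement membrane collagen, stood at 1061 and 1056 CPM against 1181 and 1151 in the strict cells. Over all cells, at 3000 UMIs, it was found in 55.3% (38.3 to 71.4) and 81.0% (65.9 to 91.4) of cells that kept tdTomato. The shares in eGFP SMCs were 89.2% and 88.4%. Over 18 alternatives its log2 fold change ran from -0.64 to -0.13, with an adjusted p under 0.05 in 6 and no call. Proteoglycans and matricellular proteins had a median of -0.05 over 17. *Mgp*, an inhibitor of calcification, stood at 4056 and 6295 against 5850 and 6977. Neither list had a gene that passed in the strict cells.

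Genes of the TGF-β pathway, the subject of the study, had a median of -0.05 over 22 tested and -0.06 over 20 within the stricter limits. The only call over all cells was *Tgfbi*, a TGF-β-induced matrix protein, with 214 and 12.3 CPM against 6.87 and 4.24, and it was too low to be tested in the strict cells. *Ltbp1*, which holds latent TGF-β in the matrix, stood at 285 and 586 against 419 and 454 in the strict cells, under the eGFP level in one aorta and over it in the other. Integrins had a median of -0.03 over 11 and Notch pathway genes 0.03 over 5. *Itga8*, the integrin alpha chain of SMCs, stood at 1756 and 1737 against 1620 and 1626.

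Small-vessel mural and pericyte genes had 5 of 12 positive and a median of -0.07 in the strict cells. *Rgs5*, a marker of pericytes, stood at 453 and 1262 CPM against 892 and 889, with the aortas on opposite sides. Targets of p53 had 9 of 11 negative and a median of -0.27, and *Cdkn1a* passed with the block alone. Immediate early and heat shock genes, which respond to tissue digestion, had a median of -0.14 over 19. Their sum was 9005 and 5705 CPM in the strict cells against 8181 and 6662. Genes of modulated SMCs, the state reached after injury, had a median of 0.75 over 14 tested over all cells, where *Lum*, *Dcn* and *Igfbp5* passed, and of -0.41 over 6 in the strict cells. Of the cell cycle list only *Pcna* and *Mcm6* were tested, and neither passed.

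**Figure D5:**
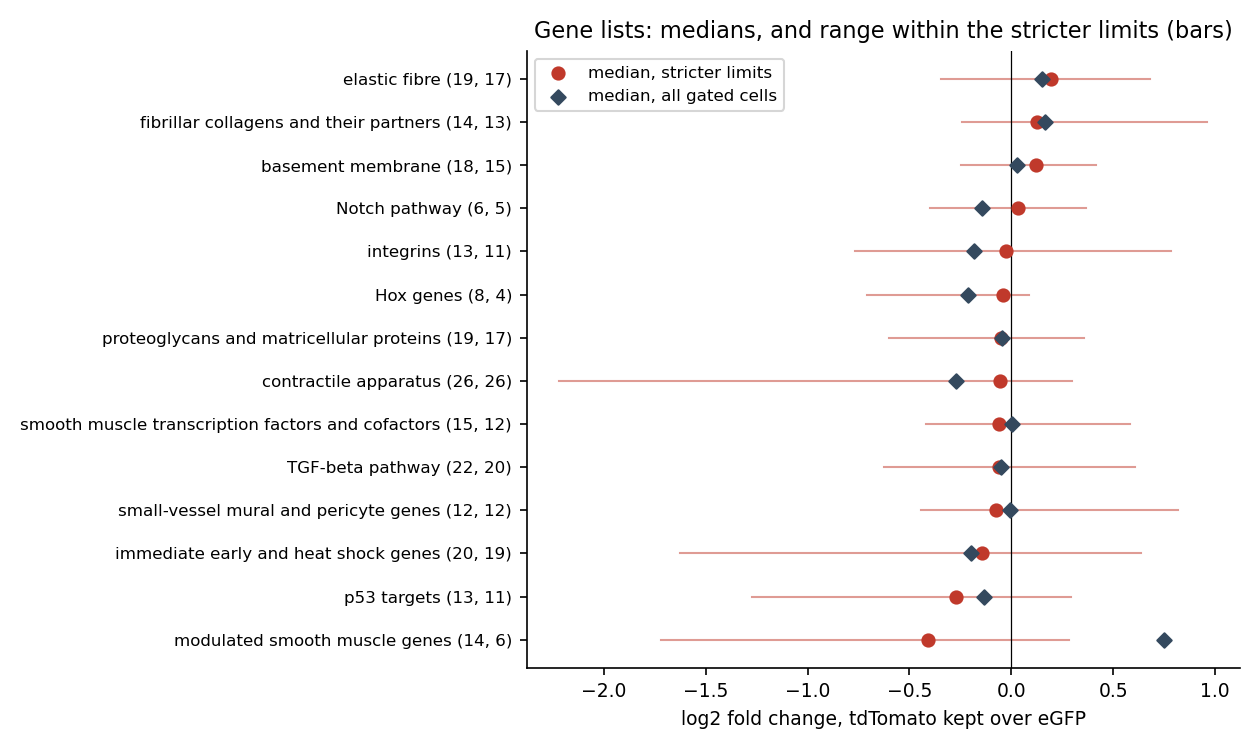
Median log2 fold change of SMCs that kept tdTomato over eGFP SMCs for each gene list with at least 3 genes tested within the stricter limits (circles), the range of its genes there (bars) and the median over all gated cells (diamonds). Numbers in brackets are genes tested over all cells and within the stricter limits. The list of modulated SMCs has a median of 0.75 over 14 genes and of -0.41 over 6, so these medians are not over the same genes.

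Genes that mark position along the aorta were examined because the thoracic aorta contains SMCs of more than one embryonic origin. Hox genes mark the more distal aorta, and *Hand2* and *Tbx20* are factors of the outflow tract and ascending segment. *Dlx* and *Msx* genes are known in derivatives of the neural crest. Of 30 Hox genes 8 were tested over all cells and none passed. Their sum was 278 and 142 CPM in the cells that kept tdTomato against 213 and 260.2 in eGFP SMCs, above it in aorta 1 and under it in aorta 2. In the strict cells it was 270.1 and 127.9 against 206 and 259.

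Counted per cell at 3000 UMIs, a Hox UMI was found in 52.6% (35.8 to 69.0) and 19.0% (8.60 to 34.1) of the SMCs that kept tdTomato and in 43.9% (41.1 to 46.8) and 47.9% (44.5 to 51.3) of eGFP SMCs, with 5.21% and 6.00% in leukocytes. At full depth the shares were 68.4% (51.3 to 82.5) and 64.3% (48.0 to 78.4) against 70.6% (67.96 to 73.2) and 75.5% (72.5 to 78.3), and the intervals overlapped in both aortas. Leukocytes had a *Hand2* or *Tbx20* UMI in 0.274% and 0.0% and a *Dlx* or *Msx* UMI in 0.274% and 0.462%. A *Hand2* or *Tbx20* UMI was found at 3000 UMIs in 15.8% (6.02 to 31.3) and 16.7% (6.97 to 31.4) against 12.8% (10.9 to 14.8) and 10.01% (8.10 to 12.2), and a *Dlx* or *Msx* UMI in 13.2% (4.41 to 28.1) and 16.7% (6.97 to 31.4) against 16.6% (14.5 to 18.8) and 17.6% (15.1 to 20.3). At 3000 UMIs the intervals overlapped except for Hox in aorta 2, where the share was 8 of 42 cells in a single random thinning. *Hand2* stood at 48.2 and 41.3 CPM in the strict cells against 44.97 and 31.998, and *Dlx5* at 24.1 and 53.6 against 24.6 and 27.04.

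Seen the other way, the share of gated SMCs that kept tdTomato was 2.94% (1.61 to 4.88) and 2.69% (1.35 to 4.76) among cells with Hox UMIs alone. It was 3.82% (1.25 to 8.68) and 9.09% (3.41 to 18.7) among cells with *Hand2* or *Tbx20* alone. Among cells with *Dlx* or *Msx* alone it was 0 of 75 cells in aorta 1, which allows up to 4.80%, and 4.92% (1.03 to 13.7) in aorta 2. Cells with UMIs of several groups had 2.40% and 4.96%, and cells with none 4.14% and 4.90%. At full depth, SMCs that kept tdTomato were thus found among cells of every regional class except *Dlx* or *Msx* alone in aorta 1. The intervals, which rest on few cells, overlapped in each aorta. With classes set at 3000 UMIs per cell, *Dlx* or *Msx* alone had 2 of 103 cells in aorta 1 (1.94%, 0.236 to 6.84). In aorta 2 it had 7 of 80 (8.75%, 3.59 to 17.2).

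Both-reporter SMCs were compared in the same fit. Against eGFP SMCs, 104 genes were higher (1.33% of 7817) and 1 was lower (0.0128%), 105 in all (1.34%). The lower gene was *Myoz2*, which encodes a sarcomeric protein, at 18.9 and 13.5 CPM against 34.8 and 39.2, and it stood at 42.1 and 43.1 in the cells that kept tdTomato. Within the stricter limits none of 5977 passed by edgeR, with 208 at an unadjusted p under 0.05, and none of 17437 by DESeq2, with 217. With the aorta as a block 3 passed (0.0502%), all higher, and they were the globin genes *Hba-a1*, *Hba-a2* and *Hbb-bs*. *Hbb-bs* stood at 2645 and 28.9 CPM against 215 and 53.9, higher in aorta 1 and not in aorta 2. The 84 genes that were higher in the cells that kept tdTomato stood at 10149 and 5955 CPM in both-reporter SMCs, 1400 and 1714 within the stricter limits. Both comparisons share the eGFP SMCs. Doublets were called in 14 and 2 of the both-reporter SMCs, against 0 and 1 of the cells that kept tdTomato.

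No gene of 7817 passed (0.0%) between SMCs that kept tdTomato and both-reporter SMCs by edgeR, with 411 at an unadjusted p under 0.05, and none of 18066 by DESeq2, with 358. None of 5977 did within the stricter limits by edgeR, with 331 at an unadjusted p under 0.05, and none of 17437 by DESeq2, with 433. The log2 fold change of *Esr1* in that comparison was -1.9995 (SE 0.49, adjusted p = 0.754), and that of *Tppp3* was -1.03 (SE 0.19, adjusted p = 0.557). With the aorta as a block, the globin genes *Hba-a1* and *Hba-a2* were lower over all cells. Within the stricter limits *Meg3* and *Rbp4* were then higher, and *Tppp3*, *Cdkn1a* and the globin genes *Hba-a1*, *Hba-a2* and *Hbb-bs* were lower. Erythroid markers summed to 35.6 and 58.5 CPM in the cells that kept tdTomato, 2076 and 60.8 in both-reporter SMCs and 359 and 85.7 in eGFP SMCs, so the excess lay in aorta 1. Its part in the globin calls was not tested.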

How the data were processed

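Single cells of 2 thoracic aortas, each 1 library of a separate animal, formed 1 group. The deposited values are counts of UMIs per gene and cell, which the authors made with Cell Ranger (4.0.0 per the file headers) against mouse mm10 with tdTomato and eGFP sequences added. The processing notes also name Seurat 4.0. The labels describe a sort on single, viable cells, without the GFP+ gate that the study's single-cell methods name. Of 32285 gene IDs, 32158 matched GENCODE annotation of GRCm38, which gave positions.

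Cells were filtered and classed by UMIs in Python 3.11.15, and doublets were called with Scrublet (scanpy 1.11.5) but kept, except in an alternative. UMIs were summed per aorta and reporter class (tdTomato kept, eGFP, both). All 3 classes were fitted together in edgeR 4.0.16 (R 4.3.3, TMM factors, filterByExpr, quasi-likelihood test, Benjamini-Hochberg adjustment) without a block. Reporter and gate genes were left out of testing and kept in library sizes. The classes of one aorta come from the same animal, so the aorta pairs the sums. Deviations from the class means correlated at 0.0976 to 0.25 over 7817 genes, and the fit with the aorta as a block was an alternative. With 2 aortas, p-values rest on few residual degrees of freedom. DESeq2 1.42.0, other limits and thinning to 3000 UMIs were alternatives. The test was checked on simulated counts.

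Named genes were up to 15 with the largest called change in each direction, with at least 20 UMIs and the same direction in both aortas, every called gene of a list, and up to 4 further genes per list with the most UMIs. The cells, lists and tests were chosen with earlier results of these data known. The stricter limits were added after the data were seen. Positions are 1-based. Sequences of the reporters and of genes are not used here.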

Additional observations from a re-analysis of the deposited data

How the results depend on the processing

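The 86 genes called between SMCs that kept tdTomato and eGFP SMCs were 1.1% of 7817 tested. DESeq2 called 164, a smaller share (0.908% of 18066). The count was 279 without a filter on low counts, 133 with those 2 classes alone and 56 with tdTomato allowed in the comparison cells. It was 48 with at least 3 tdTomato UMIs, 33 at 3000 UMIs per cell and 7 with no eGFP UMI allowed. It was 3 when all other-type markers were used to leave out cells (3 and 2 cells then kept tdTomato). With low-level markers, with a gate of 15 UMIs, and with both (the stricter limits) it was 0. Within the stricter limits DESeq2 gave 0, thinning 0 and the aorta block 3 (0.0502% of 5977). The block gave 123 over all cells (1.57% of 7817). The number of genes tested differed between settings, so counts without a share are not compared. Fewer cells entered each stricter setting, and the cause of the other shifts was not tested.

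For both-reporter SMCs the 105 calls (1.34% of 7817) became 39 without doublets, 21 when thinned, 63 with the gate of 15 and 346 without a filter. They became 0 with low-level markers and within the stricter limits, where DESeq2 gave 0, thinning 0 and the block 3 (0.0502% of 5977). For the counts of this paragraph, too, the number of genes tested differed between settings. Between the cells that kept tdTomato and both-reporter SMCs, 0 became 2 with the block, 43 without a filter and 7 with the block in the stricter limits. The 10 called genes of the lists became 1 with all other-type markers, 2 with no eGFP, 20 without a filter, 0 with low-level markers, the gate of 15 or the stricter limits, where DESeq2 gave 0, thinning 0 and the block 2.

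The mean share that kept tdTomato, 3.55%, was 2.31% with no eGFP UMI and ran from 2.81% to 4.28% by aorta. Among cells with Hox UMIs alone, 2.81% became 2.34% with at least 3 tdTomato UMIs, 1.68% with no eGFP, 2.59% with the gate of 15, 4.42% with all other-type markers, 2.002% with low-level markers, 2.07% in the stricter limits and 2.59% with classes at 3000 UMIs, with 2.69% to 2.94% by aorta. For *Hand2* or *Tbx20* alone, 6.45% became 0.0% with all other-type markers and 3.42% with no eGFP, and ran from 3.82% to 9.09% by aorta. For *Dlx* or *Msx* alone, 2.46% became 5.35% with classes at 3000 UMIs, 1.06% with 5000 to 25000 UMIs per cell and 0.0% with all other-type markers. By aorta it ran from 0.0% to 4.92%.

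Log2 fold changes turned negative for *Dcn* (-1.43 with all other-type markers, -0.83 with low-level markers, -0.77 in the stricter limits, -0.77 there with DESeq2, -0.79 with the block and -0.35 thinned) and *Igfbp5* (-1.63 with low-level markers, -1.72 in the stricter limits, -1.73 there with DESeq2 and -1.75 with the block). DESeq2 in the stricter limits also gave negative values for *C2* (-0.017), *Igfbp6* (-0.52), *Fmod* (-1.28), *C3* (-0.33), *Trf* (-0.22), *C1qb* (-0.44), *Pf4* (-1.42), *C1qa* (-1.20), *Lum* (-1.72), *Dpt* (-1.61), *Clec3b* (-1.62), *Smoc2* (-0.59), *Fcer1g* (-0.92) and *Krt19* (-1.34), most of them at or near 0 UMIs there. DESeq2 moved the median of all genes by 0.18 over all gated cells and by 0.20 in the stricter limits. Of 1918 gene-level comparisons, 1493 kept direction and call, 153 lost the call, 10 gained it and 93 moved. The sign changed in 169, of which 24 were of called genes (above) and 145 of genes that were not called, *Des* among them.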
